A study of Mus musculus with 2 samples.

Results

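A set of 10 genes for proteins of small nucleolar ribonucleoproteins (snoRNPs) and of the nucleolus was followed, 10 of the 55414 genes in the deposited matrices. They were chosen by name and role, with earlier results of these data known but no measured value as a criterion. They encode the 4 core proteins of box C/D snoRNPs (Fbl, Nop56, Nop58 and Snu13), the 4 core proteins of box H/ACA snoRNPs (Dkc1, Nhp2, Gar1 and Nop10) and the abundant nucleolar proteins nucleolin (Ncl) and nucleophosmin (Npm1). Nuclei came from C2C12, an established mouse myoblast cell line, were fixed in methanol and were barcoded singly in droplets for sequencing (Chromium v3). One library, called yPAP here, came from nuclei whose RNAs were polyadenylated in situ by yeast poly(A) polymerase, with 25 min of incubation at 37 °C. The standard library (ctrl) came from nuclei that had neither the enzyme nor the warm incubation, so enzyme and incubation cannot be told apart. Each group was 1 library, so no difference between the libraries was tested, and all intervals are 95% intervals of counting error alone.

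A box C/D snoRNP guides the 2'-O-methylation of RNA and a box H/ACA snoRNP guides pseudouridylation, mainly of ribosomal RNA in the nucleolus. The RNA component, a snoRNA, base-pairs with the target, and the proteins hold the RNA and carry the enzyme. Most mammalian snoRNAs are cut from introns of host genes, and several of the protein genes described here are hosts themselves. Their own messenger RNAs carry a poly(A) tail, whereas a mature snoRNA does not.

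In all, 13 annotated snoRNA genes lay wholly inside 4 of the 10 genes, on the same strand, and none overlapped an exon of the host's canonical transcript (GENCODE M39, GRCm39). Nop56 held 5 of them, Nop58 held 4, Ncl held 3 and Dkc1 held 1. The 6 that had unique molecular identifiers (UMIs) in the yPAP nuclei are shown because every such count inside a host came from them. Capitals mark TGATGA in the first 25 bases and CTGA in the last 25, the letters of boxes C and D, or in Gm24451 the ACA that ends 3 bases before the 3' end, as in an H/ACA RNA. Snord70 holds CTGA alone.
Snord110, Nop56 intron, chr2:130117426-130117493, plus strand: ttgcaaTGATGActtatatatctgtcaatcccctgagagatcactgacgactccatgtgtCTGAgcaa
Gm24451, Nop56 intron, chr2:130118157-130118289, plus strand: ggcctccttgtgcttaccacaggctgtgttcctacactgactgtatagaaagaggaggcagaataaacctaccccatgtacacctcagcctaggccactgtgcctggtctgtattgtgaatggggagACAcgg
Snord70, Nop58 intron, chr1:59731093-59731179, plus strand: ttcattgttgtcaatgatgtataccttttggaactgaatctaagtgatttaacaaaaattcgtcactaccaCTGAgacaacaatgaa
Gm26287, Nop58 intron, chr1:59743417-59743497, plus strand: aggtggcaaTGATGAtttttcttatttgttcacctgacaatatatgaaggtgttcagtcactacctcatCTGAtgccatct
Snord11, Nop58 intron, chr1:59743949-59744032, plus strand: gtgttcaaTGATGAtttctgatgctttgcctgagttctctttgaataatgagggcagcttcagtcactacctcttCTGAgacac
Snord82, Ncl intron, chr1:86283983-86284052, minus strand: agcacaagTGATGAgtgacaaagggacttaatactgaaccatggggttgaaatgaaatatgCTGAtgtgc

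Among the 10 snoRNA genes of up to 110 bases inside these hosts, 5 held both TGATGA and CTGA in those windows on their own strand, against 302 of the 506 annotated mouse snoRNA genes of that length (59.7%). Among the 3 longer ones, 2 had the ACA at that place, against 247 of 1001 (24.7%). The letters were read from the genome and do not show a bound protein.

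The yPAP library retained 1335 nuclei with a median of 1088 UMIs, and the standard library 1123 nuclei with a median of 996, all with more than 750 UMIs by kallisto and less than 5% mitochondrial UMIs. They held 1974403 and 1382984 UMIs. The libraries shared 0 retained barcodes. Protein-coding genes took 29.1% of these UMIs in the yPAP library and 55.5% in the standard library, so the level of an average messenger RNA in CPM (UMIs scaled to an equal library total) was lower in the former. For that reason each ratio was also set relative to the median of the 2117 protein-coding genes that reached 50 UMIs in both libraries, which stood at a log2 ratio of -1.19 by kallisto. Each of the 6 myoblast markers had UMIs in both libraries, 603 and 986 in sum, and Des supplied 360 and 636 of them. The 8 markers of differentiated muscle summed to 147 and 120 UMIs, the leukocyte markers Ptprc and Cd68 to 1 and 10, Pecam1 and Cdh5 to 10 and 35, and the epithelial markers Epcam and Krt18 were at 0 in both. These marker counts are by kallisto. By STAR, a second way of counting, the leukocyte markers had 14 and 33 UMIs, Pecam1 and Cdh5 76 and 55, and the epithelial markers 7 and 2.

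All 10 genes had fewer CPM in the yPAP nuclei than in the standard nuclei, by both ways of counting. Against the median protein-coding gene the sum of the 10 genes did not move beyond counting error by kallisto. The 10 genes held 1099 UMIs (557 CPM) in the yPAP library and 1698 UMIs (1228 CPM) in the standard library, a log2 ratio of -1.14 (-1.25 to -1.03). The relative log2 ratio of the sum was 0.05 (-0.06 to 0.16). As a share of protein-coding UMIs the group held 0.191% (0.180 to 0.203) and 0.221% (0.211 to 0.232). The share is taken of the protein-coding sum and the relative ratio of the protein-coding median, and the 2 point in opposite directions. The sum joined unlike parts. Ncl, Nop56 and Nop58, the 3 genes with the most UMIs, had together a relative log2 ratio of 0.14 (0.02 to 0.27) by kallisto. The other 7 genes together had -0.32 (-0.58 to -0.07). By STAR the 3 genes had 0.42 (0.34 to 0.49) and the other 7 had 0.04 (-0.09 to 0.16). The low value of the 7 was thus present by kallisto alone. This split was made by the UMIs of these same data. Of the 9 genes with at least 20 UMIs over both libraries, 7 were lower by more than 2-fold in CPM, a count to be read against 75.7% of all 8430 genes of that minimum. The same count after subtracting the protein-coding median was 1 of 9, Nhp2, against 11.6% of all genes, and 0 of 9 were higher by that margin, against 3.62%. The median relative log2 ratio was 0.06 over the 9 genes and -0.22 over all genes tested. The sign of the former was not stable, with -0.11 at a minimum of 500 UMIs per nucleus, -0.15 at 1500, -0.01 with no 20-UMI minimum and -0.08 against a median over genes with 200 UMIs. Nop10, with 18 UMIs in all, was under the minimum.

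**Figure D1:**
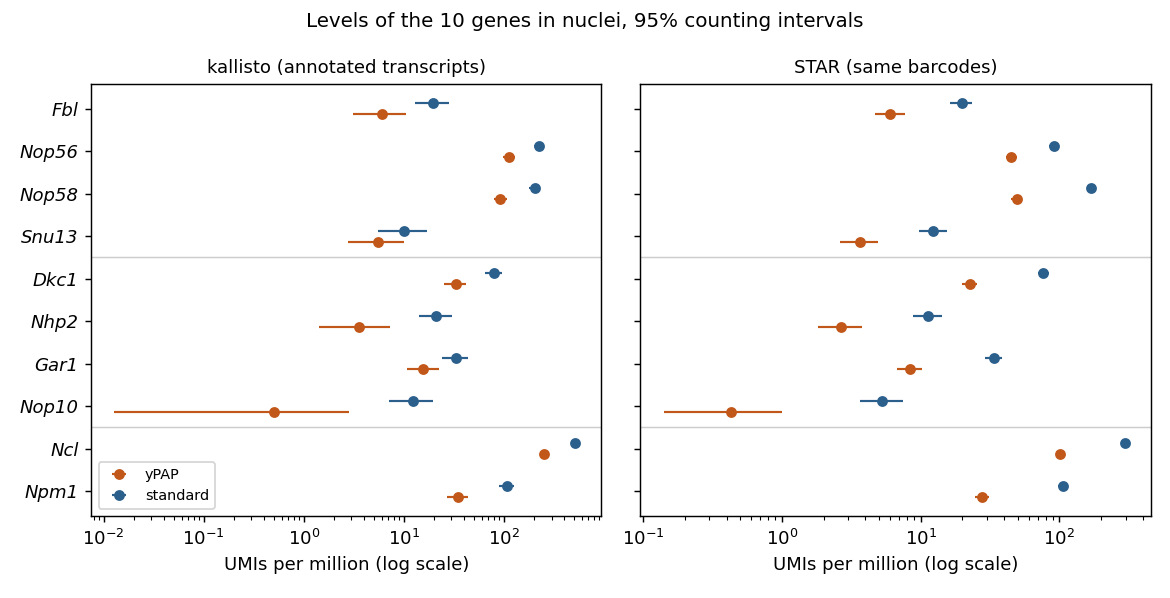
CPM on a log scale for each of the 10 genes in nuclei, counted by kallisto (left) and by STAR over the same barcodes (right), with points for the library value, bars for 95% counting intervals and lines between the box C/D, box H/ACA and nucleolar genes. Every yPAP point lies to the left of the standard point, from Ncl at 251 against 516 down to Nop10 at 0.506 against 12.3 by kallisto.

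The box C/D group had 430 yPAP and 635 standard UMIs, a relative log2 ratio of 0.12 (-0.06 to 0.29). Its 2 scaffold proteins supplied nearly all of these UMIs, and the methyltransferase and the RNA-binding protein few. Nop56 (chromosome 2, 130115808 to 130121238, plus strand, 12 exons) bridges the RNA and the methyltransferase. It had 224 UMIs and 313 UMIs, or 113 CPM and 226 CPM, a relative log2 ratio of 0.20 (-0.06 to 0.45). Nop58 (chromosome 1, 59724106 to 59758203, plus strand, 15 exons), its partner at the other end of the particle, had 183 and 281 UMIs, with a relative log2 ratio of 0.06 (-0.22 to 0.33). Neither gene was displaced from the median protein-coding gene by more than counting error.

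Fbl (chromosome 7, 27868353 to 27878701, plus strand, 9 exons) encodes fibrillarin, the methyltransferase. It had only 12 UMIs in the yPAP nuclei and 27 in the standard nuclei, and its relative log2 ratio of -0.49 (-1.61 to 0.54) covers both directions. Snu13 (chromosome 15, 81924726 to 81933618, minus strand, 3 exons) binds the folded box C and D motifs first and is also a protein of the spliceosome. With 11 and 14 UMIs its relative log2 ratio was 0.33 (-0.95 to 1.58). For either gene the interval runs over more than a 2-fold range, so a difference of that size was not detectable at this depth. Fbl-ps2, a pseudogene that shares 60.7% of the 31-base words of Fbl, had 0 UMIs in both libraries by either route. Gm6211, which shares 8.42% of them, had 3 UMIs and 15 UMIs by kallisto and 0 by STAR. Entries of Fbl that were not whole numbers, as a read shared between genes can give, numbered 0 in both kallisto matrices.

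The box H/ACA group was smaller, with 104 UMIs in the yPAP nuclei and 202 in the standard nuclei, and its relative log2 ratio of -0.28 (-0.64 to 0.07) included 0. Its 2 larger-count genes stayed near the median and its 2 smaller ones were lower. Dkc1 (chromosome X, 74139460 to 74155456, plus strand, 15 exons) encodes dyskerin, the pseudouridine synthase, which also sits in telomerase. It had 65 and 110 UMIs, or 32.9 and 79.5 CPM, and a relative log2 ratio of -0.08 (-0.55 to 0.37). Gar1 (chromosome 3, 129618560 to 129625045, minus strand, 7 exons), which binds dyskerin and joins the particle late, had 31 and 46 UMIs and a relative log2 ratio of 0.11 (-0.60 to 0.80). Neither interval excluded 0.

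Nhp2 (chromosome 11, 51510383 to 51520806, plus strand, 4 exons), an RNA-binding core protein, had 7 UMIs in the yPAP nuclei and 29 in the standard nuclei. Its CPM was 5.91-fold lower and its relative log2 ratio was -1.37 (-2.81 to -0.15). Nop10 (chromosome 2, 112092271 to 112093764, plus strand, 2 exons), a small protein that docks on dyskerin, had 1 UMI and 17 UMIs. Its log2 ratio was -4.60 (-9.99 to -1.93), or -3.41 (-8.79 to -0.74) relative to the median. With a minimum of 500 UMIs per nucleus the log2 ratio was -2.47 (-4.21 to -1.06), and with 1500 the yPAP count was 0 and the bound at the floor was -1.85. These were the lowest relative values of the 10, and both rest on fewer than 10 UMIs in the yPAP library.

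Nucleolin and nucleophosmin bind nascent ribosomal RNA and pre-ribosomal particles. Ncl (chromosome 1, 86272441 to 86287208, minus strand, 14 exons) had the most UMIs of the 10 genes before any scaling by length, 496 and 713, or 251 and 516 CPM. Its relative log2 ratio was 0.15 (-0.01 to 0.32). Npm1 (chromosome 11, 33100281 to 33113267, minus strand, 11 exons) had 69 and 148 UMIs, and its relative log2 ratio of -0.42 (-0.86 to -0.0012) had its upper bound at the median. The point values of Npm1 and Ncl thus lay on either side of the median protein-coding gene by kallisto, though the interval of Ncl included 0.

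For an order of the genes per length, kallisto UMIs were divided by the length of the canonical transcript in kilobases (kb). In the standard nuclei Nop56 led with 131 UMIs per kb (117 to 146), above Npm1 with 88.9 (75.1 to 104) and Ncl with 86.0 (79.8 to 92.6), which could not be ordered. Gar1 with 36.2, Nop58 with 29.4, Nhp2 with 27.5, Dkc1 with 22.6, Fbl with 22.3 and Nop10 with 13.5 followed, and the interval of each overlapped that of the next. Snu13 was lowest with 6.70 (3.66 to 11.2). In the yPAP nuclei the order began with Nop56 at 93.5, Ncl at 59.8 and Npm1 at 41.4 UMIs per kb, whose intervals did not overlap. Gar1 at 24.4, Nop58 at 19.1, Dkc1 at 13.3, Fbl at 9.89, Nhp2 at 6.64 and Snu13 at 5.27 came next, and Nop10 was last at 0.794 (0.0201 to 4.43). From Npm1 down the interval of each gene overlapped that of the gene before it. The core proteins of one particle thus differed widely in UMIs per kb within a library. UMIs are read from the 3' side and need not rise with length, so the division itself can set the order. Undivided, Ncl had 713 UMIs in the standard nuclei, Nop56 313 and Npm1 148. A level per kb also depends on the transcript end in the annotation. The order per kb is thus not an order of transcript abundance. By STAR, per kb of the whole gene, the standard order began with Ncl at 125, Nop56 at 106 and Npm1 at 50.7, so the leading gene depended on the route. Without regard to length, Ncl, Nop56 and Nop58 together held 82.2% of the UMIs of the 10 genes in the yPAP nuclei and 77.0% in the standard nuclei.

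Counting the same nuclei by STAR kept the order of the libraries and moved several genes against the median. STAR held 3090 UMIs of the 10 genes in the yPAP nuclei and 5122 in the standard nuclei, 2.81 and 3.02 times the kallisto UMIs, where the median protein-coding gene had 3.85 and 4.65 times. Nop56 gained least, at 2.33 and 1.83 times, and Npm1 gained 4.64 and 4.43 times. All 10 genes were lower by more than 2-fold in CPM, against 83.0% of the 13858 genes tested. Relative to the STAR median, which stood at a log2 ratio of -1.92, 1 of 10 was lower by more than 2-fold, Nop10, against 2.81% of all genes, and 0 of 10 were higher, against 15.9%.

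The 2 genes with the clearest upward shift by STAR were Nop56 and Ncl. Both are hosts of snoRNA genes, for which STAR listed 0 UMIs. How reads over an intron or a snoRNA were assigned there is not given, so whether such reads are among the host UMIs was not tested. Nop56 had 521 and 574 STAR UMIs, a relative log2 ratio of 0.89 (0.72 to 1.07) against 0.20 by kallisto. Ncl had 1176 and 1839, a relative log2 ratio of 0.39 (0.28 to 0.50). Nop10 had 5 and 33 STAR UMIs and stayed low at -1.69 (-3.40 to -0.32), whereas Nhp2, with 31 and 71, was at -0.16 (-0.82 to 0.47). The low relative value of Nhp2 was thus present in the kallisto counts and not in the STAR counts, and that of Nop10 was present in both. Npm1 had 320 and 658 STAR UMIs and a relative log2 ratio of -0.01 (-0.20 to 0.19). Fbl with 70 and 123, Nop58 with 567 and 1060, Snu13 with 42 and 77, Dkc1 with 261 and 477 and Gar1 with 97 and 210 had relative log2 ratios between -0.08 and 0.22 by STAR, with intervals that included 0. By STAR the sum of the 10 genes lay above the median protein-coding gene, at a relative log2 ratio of 0.30 (0.24 to 0.37).

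**Figure D2:**
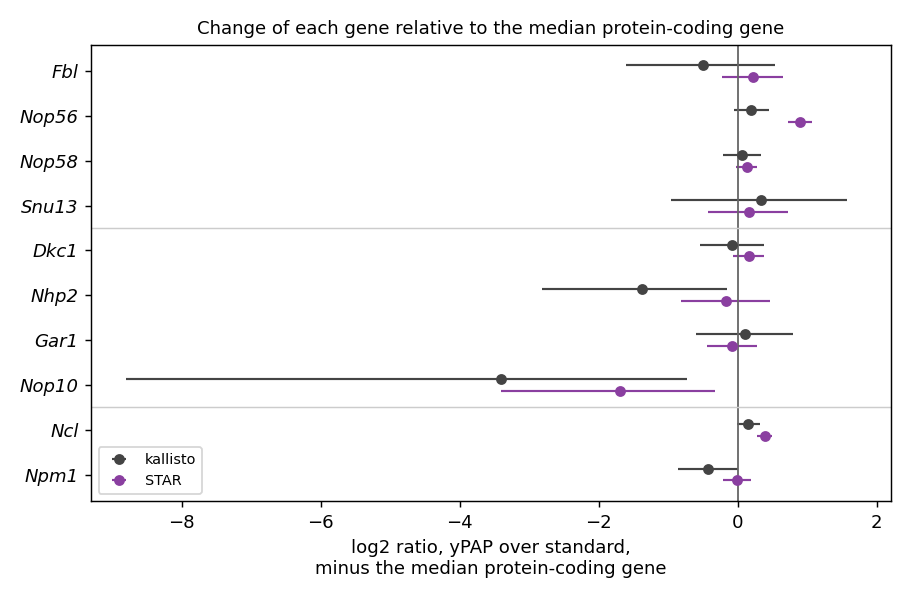
The log2 ratio of the yPAP over the standard library for each gene minus that of the median protein-coding gene, by kallisto (grey) and STAR (purple), with 95% counting intervals. Nop10 lies left of 0 by both routes, Nhp2 by kallisto alone, and Nop56 lies right of 0 by STAR at 0.89.

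In CPM the snoRNA genes inside the hosts went in sum the opposite way from the hosts. By kallisto the 13 genes had 72 UMIs in the yPAP nuclei and 2 by the standard protocol, a log2 ratio of 4.66 (2.75 to 7.73). All 4 hosts had fewer CPM, where 75.7% of all genes tested were lower by more than 2-fold. Relative to the median protein-coding gene, Nop56 was at 0.20, Nop58 at 0.06, Ncl at 0.15 and Dkc1 at -0.08. Each of these intervals included 0. By STAR the same 4 hosts were at 0.89, 0.13, 0.39 and 0.16, and the intervals of Nop56 and Ncl lay above 0. Inside Nop56, Gm24451 had 27 UMIs and 1 UMI, and Snord110 had 15 and 0. Inside Nop58, Snord11 had 11 and 0, Gm26287 had 6 and 0, and Snord70 had 4 and 1. Snord82 inside Ncl had 9 and 0. With each count of 0 replaced by 3 UMIs in that library, the fold was 3.50 for Snord110, 2.57 for Snord11, 2.10 for Snord82 and 1.40 for Gm26287. These folds carry no interval for the small yPAP counts, so they are not lower limits. The other 7 genes had 0 UMIs in the nuclei of both libraries, among them Snord57 inside Nop56, Snora75 and Gm55462 (SNORD20 in the files) inside Ncl, and Gm25520 inside Dkc1.

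In the yPAP library, barcodes with 1 to 100 UMIs, taken as a measure of free RNA, had a higher CPM of these snoRNAs than nuclei did. They held 456 UMIs of the 13 genes, and the log2 ratio of CPM in nuclei over these barcodes was -2.60 (-2.98 to -2.24). In the standard library, with 2 UMIs in nuclei and 8 in these barcodes, it was -1.21 (-4.48 to 1.12), which includes 0. The yPAP level was 168 CPM in barcodes of 1 to 10 UMIs, 227 in those of 11 to 100, 76.3 in those of over 100 to 500, 47.6 in those of over 500 to 750 and 36.5 in nuclei. Nuclei of the yPAP library were thus not enriched in these snoRNAs over its free RNA. STAR listed 0 UMIs for each of the 13 genes in every deposited barcode of both libraries. The sources used here do not say how reads over both an intron and a snoRNA were assigned there, and reads of an unspliced host and of the snoRNA cannot be told apart in either matrix.

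**Figure D3:**
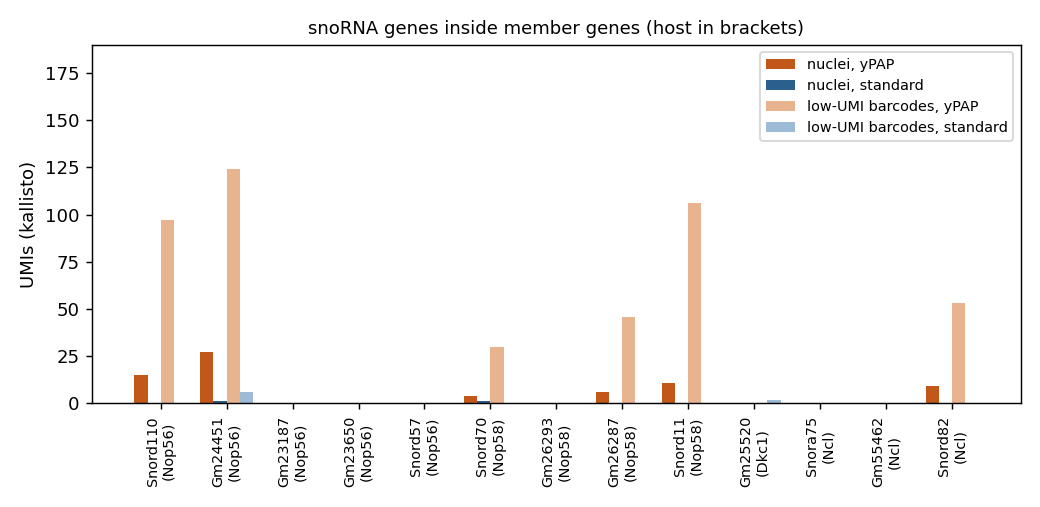
UMIs by kallisto of the 13 snoRNA genes inside Nop56, Nop58, Dkc1 and Ncl, in nuclei and in barcodes with 1 to 100 UMIs of each library. There are 6 genes that have UMIs in the yPAP nuclei, from 4 for Snord70 to 27 for Gm24451, and each of these has more in the low-UMI barcodes, from 30 to 124.

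The 10 host and core genes themselves were compared between nuclei and barcodes with 1 to 100 UMIs in the same way. In sum their log2 ratio of nuclei over low-UMI barcodes was -0.07 (-0.19 to 0.05) in the yPAP library and -0.30 (-0.39 to -0.22) in the standard library. The yPAP value depended on the range, with -0.71 (-0.95 to -0.47) against barcodes of 1 to 10 UMIs and 0.15 (0.02 to 0.27) against those of over 100 to 500. The standard value was -0.11 (-0.23 to 0.01) for nuclei of over 1500 UMIs. The median protein-coding gene was at -0.09 and -0.06. As sums, the box H/ACA genes were lower in nuclei in both libraries, at -1.31 (-1.65 to -0.98) and -1.25 (-1.48 to -1.02), whereas the box C/D genes were at 0.16 (-0.04 to 0.36) and 0.13 (-0.02 to 0.27). The box C/D genes were mixed. Fbl was at -1.36 (-2.45 to -0.36) and -0.72 (-1.41 to -0.07), and Nop56 at 0.24 and 0.62. Nop58 and Snu13 differed in sign between the libraries, with intervals that included 0. All 4 box H/ACA genes were below 0, but the interval of Gar1 in the yPAP library, -0.93 to 0.53, included 0, as did that of Nop10 in the standard library. Of the 9 genes with at least 20 UMIs in the yPAP library, 3 were lower in nuclei by more than 2-fold, Fbl, Dkc1 and Nhp2, against 18.5% of the 8018 genes tested. In the standard library 1 of 10 was, and that was Dkc1, against 10.2% of 10730 genes.

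Dkc1 carried most of the box H/ACA difference. It had 65 UMIs in nuclei and 191 in low-UMI barcodes of the yPAP library, a log2 ratio of -1.50 (-1.93 to -1.08), and 110 and 562 in the standard library, a log2 ratio of -1.56 (-1.87 to -1.26). Over barcodes of rising UMI number its CPM in the standard library was 163 (109 to 234) in the 1 to 10 range, 240 (220 to 261) in the 11 to 100 range, and then 127, 94.4 and 79.5. In the yPAP library it was 95.1 and 92.7 in the first ranges and 31.2, 39.2 and 32.9 above them. Dkc1 was thus highest below 100 UMIs in both libraries, without a steady fall. As a share of protein-coding UMIs Dkc1 was at 0.0245% in the 1 to 10 range, 0.0420% in the 11 to 100 range and 0.0143% in nuclei of the standard library, and at 0.0197%, 0.0299% and 0.0113% in the other, so the difference was also there on that scale. Nop56 went the other way in the standard library, from 135 CPM in barcodes of 1 to 10 UMIs to 148, 174, 184 and 226 in nuclei, and its log2 ratio of nuclei over low-UMI barcodes was 0.62 (0.40 to 0.85). That interval takes each UMI as independent, whereas the 313 UMIs of Nop56 in these nuclei lay in 145 nuclei. It is therefore too narrow, and whether a few nuclei carried the rise was not tested. In the yPAP library that ratio was 0.24 (-0.04 to 0.53). Ncl went from 810 CPM in the lowest range to 516 in nuclei of the standard library, a log2 ratio over the low-UMI barcodes of -0.29 (-0.42 to -0.16).

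**Figure D4:**
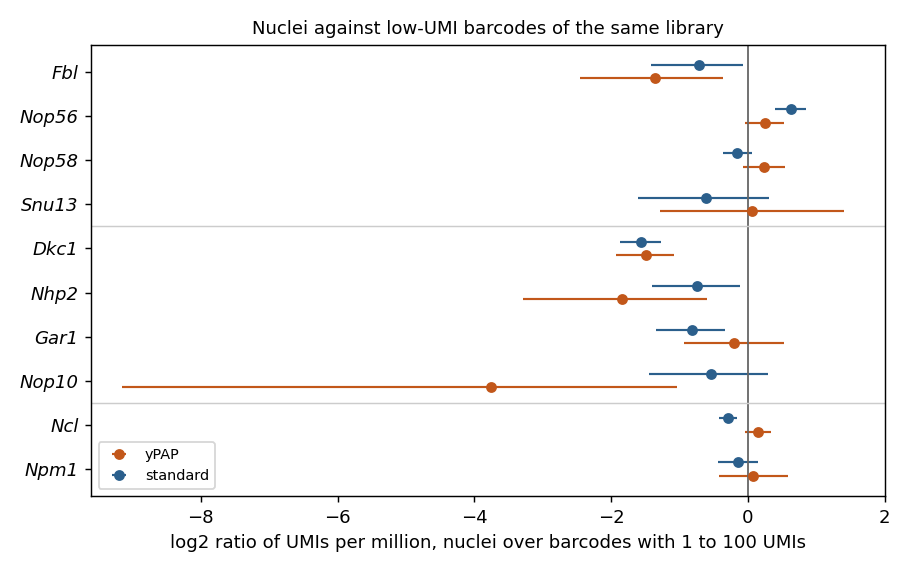
The log2 ratio of CPM in nuclei over barcodes with 1 to 100 UMIs for each gene in each library, with 95% counting intervals. Dkc1 lies at -1.50 and -1.56, and Nop56 of the standard library lies at 0.62.

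**Figure D5:**
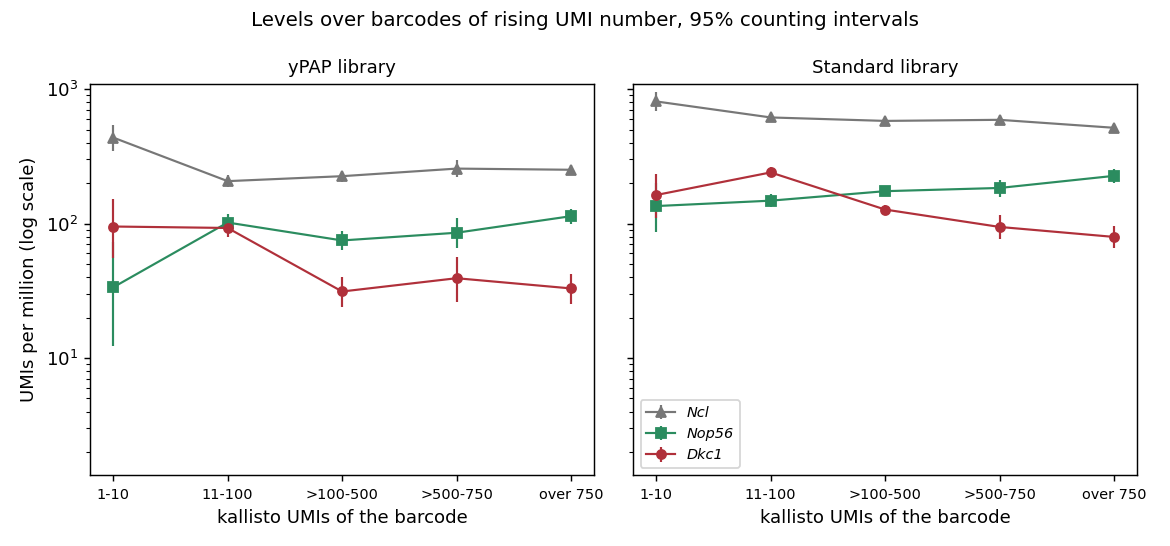
CPM on a log scale of Ncl, Nop56 and Dkc1 over barcodes grouped by their own kallisto UMIs, in each library, with 95% counting intervals. From the lowest range to nuclei of the standard library Dkc1 goes from 163 to 240 and then down to 79.5, while Nop56 goes from 135 to 226.

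Per nucleus, UMIs of these genes were sparse. After thinning each nucleus to 750 UMIs, 33.6% (31.03 to 36.2) of yPAP nuclei and 53.1% (50.2 to 56.1) of standard nuclei had a UMI of any of the 10 genes, where 0 and 3 nuclei were too shallow to thin. Without thinning the shares were 47.7% and 64.5%, and by STAR 81.7% and 96.8%. In the barcodes with 1 to 100 UMIs, which are far shallower, the shares were 0.511% and 1.52%. No cell type of these libraries lacks the genes, so a background share in nuclei was not available. Ncl alone was found in 17.3% and 29.7% of thinned nuclei, Nop58 in 6.74% and 14.1%, and Nop56 in 6.74% and 9.46%. Without thinning, the 313 standard UMIs of Nop56 lay in 145 nuclei and the 281 of Nop58 in 229. In the yPAP library the 224 UMIs of Nop56 lay in 131 nuclei and the 183 of Nop58 in 161. The UMIs of Nop56 were thus concentrated in fewer nuclei than those of Nop58. The variance of the summed UMIs per thinned nucleus was 1.12 and 1.29 times the mean. Without thinning it was 2.24 and 2.78 times by kallisto and 2.30 and 3.32 times by STAR, where nuclei also differ in depth. The most members seen together in 1 nucleus by STAR were 6 of 10 in the yPAP library and 10 of 10 in the standard library.

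The share of protein-coding UMIs held by the 10 genes was also taken over nuclei of different depth. In the yPAP library it was 0.181% (0.160 to 0.204) in nuclei of up to 1000 UMIs, 0.191% (0.169 to 0.214) in those of up to 1500 and 0.198% (0.181 to 0.215) in deeper ones. In the standard library it was 0.214% (0.196 to 0.232), 0.204% (0.186 to 0.223) and 0.243% (0.225 to 0.263). The yPAP intervals all overlapped. In the standard library the intervals of the deepest nuclei, 192 in number, and of the middle ones were only just apart. These intervals take UMIs as independent, whereas the variance of the summed UMIs was 1.29 times the mean even in thinned standard nuclei. A difference by depth in that library is thus not established.

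Genes that work beside the 10 were read from 4 lists, on the same relative scale by kallisto. The snoRNP assembly list had a median of 0.47, with 1 of 12 measured genes above 1 and 1 below -1. Naf1, an assembly factor of box H/ACA particles, had 33 and 21 UMIs and a relative log2 ratio of 1.33 (0.50 to 2.19), and Tcof1, which encodes the nucleolar protein treacle, had 573 and 463 and a relative log2 ratio of 0.99 (0.81 to 1.17). Tgs1, the trimethylguanosine synthase that hypermethylates caps of small nuclear and some small nucleolar RNAs, was at -0.30 (-0.62 to 0.02) and Znhit6, a box C/D assembly factor, at 0.01 (-0.45 to 0.46). None of the 10 snoRNP and nucleolar protein genes had a point value as high as that of Tcof1 on this scale.

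Of the 14 RNA polymerase I genes found in the files, 0 were past 2-fold in either direction and the median was -0.26. Among those with at least 50 UMIs, Ubtf, the factor that binds the ribosomal DNA promoter, was highest at 0.45 (0.14 to 0.76), followed by Polr1a, the largest subunit, at 0.20. Ttf1, a termination factor, was lowest of these at -0.59 (-0.90 to -0.29), beside Taf1a at -0.47. In the small-subunit processing list 2 of 42 measured genes were above 1 and 4 below -1, with a median of -0.20. The helicase gene Dhx37 was at 1.55 (0.68 to 2.47) and Wdr46 at 1.17 (0.62 to 1.73), while Krr1 was at -1.61 (-2.83 to -0.56) and Nob1, the nuclease that makes the 3' end of 18S ribosomal RNA, at -1.22 (-1.83 to -0.64). In the large-subunit list 1 of 41 was above 1 and 4 below -1, with a median of 0.07. There the helicase genes Ddx27 and Ddx51 were at 1.03 (0.73 to 1.33) and 0.88 (0.09 to 1.68), and Wdr12 and the GTPase gene Gtpbp4 at -1.04 (-1.70 to -0.41) and -1.19 (-1.63 to -0.77). All genes tested had a median of -0.22, with 305 of 8430 above 1 and 982 below -1. By STAR the medians of the 4 lists were 0.32, 0.21, 0.17 and 0.34, and that of all genes was 0.08. In each list 0 genes were below -1 by STAR, against 2.81% of all genes tested. Krr1 was there at -0.37, Nob1 at 0.12, Wdr12 at -0.05 and Gtpbp4 at -0.26, so their low values were present by kallisto alone. Of the high genes, Tcof1 was at 1.18 by STAR, Ddx27 at 1.17, Wdr46 at 1.07, Ddx51 at 0.91, Dhx37 at 0.71 and Naf1 at 0.51.

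The protein-coding genes whose profile was nearest to the mean of the well-counted members of the group were sought over 6 values, the log2 CPM by kallisto in nuclei, by STAR in nuclei and by kallisto in low-UMI barcodes of each library, centred per gene. Of the 10 genes, 5 (Nop56, Nop58, Dkc1, Ncl and Npm1) had the 50 UMIs needed in each of the 6, and the mean is over these. Among 2004 other genes the nearest were Rab34 at a Euclidean distance of 0.09, Cdk9 at 0.14, Scamp3 at 0.16, Anapc5 at 0.17 and Ecm1 at 0.18, where the median gene was at 0.98. The 5 genes themselves lay at 0.40 (Ncl), 0.42 (Nop58), 0.89 (Npm1), 1.01 (Nop56) and 1.33 (Dkc1). Nop56 and Dkc1 were thus as far from the mean of their own group as the median gene was or farther.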

How the data were processed

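The data were 2 single-nucleus libraries. The authors trimmed reads with cutadapt 3.4 and quantified them against GRCm39 with the GENCODE M28 annotation. The deposited kallisto matrices (kallisto 0.48.0, bustools 0.41.0) hold, for each barcode and gene, estimated counts of UMIs made by the authors with regard to strand, and 1.10% and 2.65% of entries were not whole. Among the genes described, Nop58 had most of these, 12 of 161 entries and 55 of 229. The deposited STAR matrices (STAR 2.7.10a) hold whole-number counts of UMIs for some of the barcodes, 3791 and 8474. The sources used here do not say how these were chosen or whether introns were counted.

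UMIs were summed over barcodes with more than 750 kallisto UMIs and under 5% mitochondrial UMIs, the study's filter, and rounded. STAR had 1328 and 1123 of these nuclei, with 11545281 and 6237950 UMIs. Doublets were not called. Coordinates and canonical transcript lengths came from GENCODE M39. Ratios carry exact conditional Poisson intervals and shares exact Clopper-Pearson intervals, both for counting error only, since UMIs of 1 library are not replicates. They take UMIs as independent, so they are too narrow where the UMIs of a gene lie together in few nuclei. A zero was set to 3 UMIs. Calls across genes needed 20 UMIs over both sides and a 2-fold difference. Copies of the 10 genes were sought as genes sharing at least 5% of their 31-base words. Of the 21 found, 17 are in the files and held 15 UMIs or fewer each by kallisto.

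The genes named were all 10 members, the snoRNAs inside them, copies with a -ps symbol, the 2 highest and 2 lowest genes of each list with at least 50 UMIs, the 5 nearest profiles and the marker genes. Gm6211 and the genes of the barcode-range plot were picked after their values were seen. Members, lists and rule were chosen with earlier results of these data known. The code was tested on simulated data. Analyses used Python 3.11.15, NumPy 2.4.6, SciPy 1.17.1 and pandas 2.3.3.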

Additional observations from a re-analysis of the deposited data

Results flagged for a closer look

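For 4 genes the ratio of nuclei over barcodes with 1 to 100 UMIs was above 0 in the yPAP library and below 0 in the standard library. The log2 ratios were 0.23 and -0.16 for Nop58, 0.058 and -0.61 for Snu13, 0.15 and -0.29 for Ncl, and 0.079 and -0.14 for Npm1. With 1 library on each side the difference was not tested. Only the interval of Ncl in the standard library (-0.42 to -0.16) excluded 0 among these 8 values.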

How the results depend on the processing

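No paired analysis was possible because the groups had 1 library each. With a minimum of 1500 UMIs per nucleus the summed log2 ratio was -1.36, that of Fbl -3.11, that of the inner snoRNAs 2.74, nuclei over low-UMI barcodes in the standard library -0.11, and STAR over kallisto UMIs there 2.58. The summed ratio was -1.62 by STAR and -0.21 with protein-coding UMIs as the denominator. STAR gave no snoRNA value, since both counts were 0. Thinning to 300 or 500 UMIs, or none, gave shares of nuclei with a UMI of 14.8%, 23.9% and 47.7% in the yPAP library and 30.2%, 42.5% and 64.5% in the standard library, as fewer or more UMIs were drawn. Against barcodes of 1 to 10 UMIs the yPAP nuclei were at -0.71, and against those of over 100 to 500 at 0.15 and the standard nuclei at -0.13. For the pathway lists, whose alternatives were chosen after seeing the data, STAR moved the RNA polymerase I median to 0.21 and the large-subunit median to 0.34. Beyond thinning, the cause was not tested. The log2 ratio of CPM was below 0 for all 10 genes in every setting tried. That of the median protein-coding gene was itself -1.19 by kallisto and -1.92 by STAR, so this sign is shared with most messenger RNAs. Relative to that median, 5 of the 10 genes were below 0 by kallisto and 4 by STAR. Of 60 summary values taken under an altered setting, 43 lay within the counting interval of the main setting. For the ratios of STAR over kallisto UMIs that interval treats counts of the same reads as independent.

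Depth limits the genes with few UMIs (Fbl, Snu13, Nhp2 and Nop10), and no interval covers variation between preparations.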
